A study of Mus musculus with 11 samples.

Results

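Bcl11b and Bcl11a are the 2 members of the mouse BCL11 gene family, chosen here by gene symbol in both count tables and in both tables of normalised values of the series. Of the 53402 gene identifiers listed in both count tables, these 2 genes are the subject, and both passed the filter on low counts in both tables. The series measured RNA of thymocytes sorted by FACS as negative for CD24 and for the T cell receptor beta chain (TCRb), in 11 libraries. The Bcl11b table held postnatal day 0 (P0) thymocytes of 3 genotypes, Bcl11b D/N440K, Bcl11b +/N440K and Bcl11b +/+, with 2 libraries each. N440K is a changed residue of the Bcl11b protein, an asparagine replaced by a lysine, and the labels do not define the allele written D. The Tcf7 table held postnatal day 7 (P7) thymocytes, with 3 libraries under the label Tcf7 F/F:Vav1-Cre and 2 of Tcf7 +/+. Tcf7 F/F:Vav1-Cre stands for a floxed Tcf7 gene with a Cre recombinase under the Vav1 promoter, which is active in blood cells and their progenitors. The study, by its title, is about interference of a mutant Bcl11b with Bcl11a as T cells and neurons develop. Nothing in the labels says that the replicates were separate animals, so each p-value measures only the spread between these libraries, which may be technical.

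The BCL11 proteins are zinc-finger transcription factors of the C2H2 type, also called CTIP2 (Bcl11b) and CTIP1 (Bcl11a), that bind DNA and recruit chromatin complexes such as NuRD and BAF. In the thymus, Bcl11b is switched on when a progenitor commits to the T cell lineage, after Notch1, Gata3, Tcf7 and Runx1, and it then holds down genes of natural killer cells and of other innate lymphoid cells. Bcl11a is best known from lymphoid progenitors, B cells, plasmacytoid dendritic cells and the switching of globin genes in red cells.

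Bcl11b (ENSMUSG00000048251) lies on the minus strand at chr12:107910403-108003602 and Bcl11a (ENSMUSG00000000861) on the plus strand at chr11:24078056-24174123 of GRCm38, with GENCODE M21 giving 8111 and 13175 bases of exon. Translated from the GENCODE coding sequences, the proteins have 884 and 835 residues, and 540 of 805 aligned residues were identical (67.1%, against 61.6% outside the zinc fingers). A search for the C2H2 pattern found 6 fingers in each protein. Their identity between the paralogs ran from 90.9 to 100%. Residue 440 of Bcl11b falls in the second finger, of which 20 of 21 residues are shared, and it aligns with residue 391 of Bcl11a, which is also an asparagine. The codons are at chr12:107916735-107916737 and chr11:24163829-24163831. The coding sequences of this finger are shown because the N440K change sits in it, with the asparagine codon in capitals. They span chr12:107916711-107916773 on the minus strand and chr11:24163793-24163855 on the plus strand, and 51 of their 63 bases are identical.
Bcl11b: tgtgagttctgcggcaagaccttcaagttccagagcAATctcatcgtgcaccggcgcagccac
Bcl11a: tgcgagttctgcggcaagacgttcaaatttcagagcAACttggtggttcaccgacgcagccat

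The reads were counted per gene, so the counts separate neither the mutant from the normal allele nor the 3 and 6 annotated transcripts of Bcl11b and Bcl11a. Bcl11a overlaps an antisense gene, 4930538E20Rik, that shares 316 exon bases with it. Another, Gm12064, shares 0 exon bases. The strand of counting is not given in the sources used here. Reads of Bcl11a and of 4930538E20Rik thus cannot be told apart where their exons overlap. 4930538E20Rik itself held 0 to 2 counts in the P0 libraries and 2 to 8 in the P7 libraries.

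Total counts were 999381 to 1842717 per library. Every P0 library held counts of both Xist (351 to 602), the RNA of the inactive X chromosome, and of Y-linked genes (177 to 239). In the P7 libraries the Y-linked genes held 555 counts in replicate 2 labelled Tcf7 F/F:Vav1-Cre but 0 and 2 in replicates 1 and 3, against 556 and 715 in Tcf7 +/+. The pair of Tcf7 +/+ libraries also differed more from each other than other pairs did, with a chi-square per degree of freedom of 4.95 against 1.13 to 2.15. The Tcf7 gene itself was not lower in the samples labelled Tcf7 F/F:Vav1-Cre, with 847, 658 and 694 CPM (read counts normalised to library size with TMM factors), against 552 and 594 CPM in Tcf7 +/+. A count over all exons does not show a deleted part of a gene. Cd24a, the gene of the sort marker, stood at 0 to 12.5 CPM in all 11 libraries, while Trbc1 and Trbc2, the constant segments of the TCR beta chain, stood at 46.9 to 211 CPM. Of these 3 genes Cd24a and Trbc2 fell in both mutant genotypes against Bcl11b +/+, with 0 of the 3 called by DESeq2. Over all genes, 6.31% fell in Bcl11b D/N440K and 5.3% in Bcl11b +/N440K. Cd24a was near the floor there, at 3.43 and 1.02 CPM in Bcl11b D/N440K and 2.45 and 0 CPM in Bcl11b +/N440K. Trbc1 and Cd24a fell in the samples labelled Tcf7 F/F:Vav1-Cre, where 11.1% of all genes fell.

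Bcl11b RNA was lower in both mutant genotypes than in Bcl11b +/+. It had 152 and 204 CPM in Bcl11b D/N440K, 185 and 225 CPM in Bcl11b +/N440K, and 641 and 506 CPM in Bcl11b +/+. These values rest on 177 and 200, 227 and 228, and 627 and 609 counts. Both mutant groups lay wholly below Bcl11b +/+ and overlapped each other. Bcl11a had 64.2 and 71.2 CPM in Bcl11b D/N440K, 47.3 and 53.3 CPM in Bcl11b +/N440K, and 102 and 111 CPM in Bcl11b +/+, on 75 and 70, 58 and 54, and 100 and 134 counts. For Bcl11a none of the 3 groups overlapped another, and Bcl11b +/N440K was the lowest of the 3. In the pairs of these groups, 35.4 to 51.0% of all 10910 genes tested did not overlap either.

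At P7, Bcl11b had 209, 269 and 235 CPM in the samples labelled Tcf7 F/F:Vav1-Cre and 324 and 343 CPM in Tcf7 +/+. These groups did not overlap, as was so for 48.8% of all 12366 genes tested. Bcl11a had 193, 214 and 194 CPM in those labelled Tcf7 F/F:Vav1-Cre and 261 and 167 CPM in Tcf7 +/+. The Tcf7 +/+ pair lay on either side of all 3 others. The tables differ in age and were scaled separately, so levels set across them are a description. Ordered by group mean, Bcl11b stood at 178 ± 36.7, 205 ± 28.1 and 574 ± 96.0 CPM (SD, n = 2 each) in Bcl11b D/N440K, +/N440K and +/+. It stood at 238 ± 29.9 CPM (SD, n = 3) in Tcf7 F/F:Vav1-Cre and 333 ± 13.2 CPM (SD, n = 2) in Tcf7 +/+. Bcl11a stood at 67.7 ± 4.96, 50.3 ± 4.22 and 107 ± 6.33 CPM (SD, n = 2 each) in Bcl11b D/N440K, +/N440K and +/+, and at 200.3 ± 11.95 CPM (SD, n = 3) in Tcf7 F/F:Vav1-Cre and 214 ± 66.1 CPM (SD, n = 2) in Tcf7 +/+. The order of the 5 groups thus differed between the paralogs: Bcl11b was highest in Bcl11b +/+ at P0, and Bcl11a in the P7 groups. The lowest neighbours in the order of Bcl11b, D/N440K and +/N440K, did not differ beyond their spread, and nor did the P7 groups for Bcl11a.

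**Figure D1:**
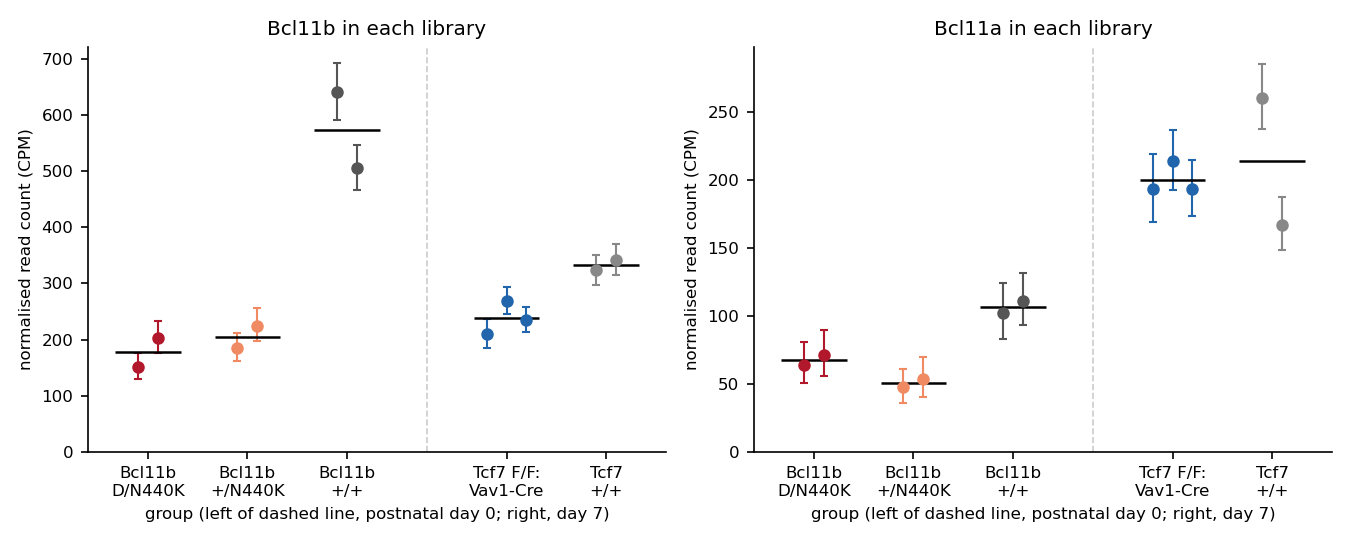
Normalised read counts (CPM) of Bcl11b (left) and Bcl11a (right) in each library, by group. Points are libraries with exact 95% Poisson intervals for counting error only, and black lines are group means. The P0 mutant libraries of Bcl11b sit between 152 and 225 CPM, all below the 506 and 641 CPM of Bcl11b +/+, and Bcl11a is lowest in Bcl11b +/N440K.

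Levels of the 2 genes can be set beside each other only per length. Per kilobase of annotated exon, Bcl11b averaged 21.9 and Bcl11a 5.14 CPM in Bcl11b D/N440K, 25.3 and 3.82 in Bcl11b +/N440K, and 70.7 and 8.10 in Bcl11b +/+. In the samples labelled Tcf7 F/F:Vav1-Cre, Bcl11b averaged 29.3 and Bcl11a 15.2 CPM per kilobase, and in Tcf7 +/+ 41.1 and 16.3. Bcl11b was the higher of the paralogs on this scale in all 5 groups. Among the tested genes with an annotated length, Bcl11b stood above 69.0 and 78.3% of genes by CPM per kilobase in Bcl11b D/N440K, above 75.5 and 80.4% in Bcl11b +/N440K, and above 96.3 and 94.8% in Bcl11b +/+. Bcl11a stood above 22.7 and 26.1% of genes in Bcl11b D/N440K, above 14.9 and 18.6% in Bcl11b +/N440K, and above 36.2 and 39.4% in Bcl11b +/+. At P7, Bcl11a stood above 64.5 to 67.5% of genes in Tcf7 F/F:Vav1-Cre and above 74.5 and 59.6% in Tcf7 +/+.

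Bcl11b +/N440K was compared with Bcl11b +/+ to show what 1 mutant allele does beside a normal one. Bcl11b fell to 35.8% of its Bcl11b +/+ level (95% interval of the fit 30.6 to 41.8%), a log2 fold change of -1.48 with an SE of 0.111 (edgeR adjusted p = 3.59e-13). Bcl11a fell to 46.8% (37.2 to 58.9%), a log2 fold change of -1.10 with an SE of 0.164 (edgeR adjusted p = 4.05e-06). Of all 10910 genes tested, 10.1% passed the threshold of adjusted p under 0.05 in this comparison (4.79% higher and 5.3% lower), and the values of 47.8% did not overlap between the groups. By p, Bcl11b was number 12 and Bcl11a number 164 of the 10910, and 179 and 324 genes had a lower log2 fold change. Both calls held under all alternatives tried, including each library left out in turn. In bulk RNA, fewer cells of a type and less RNA per cell cannot be told apart. Markers of CD4 CD8 double-positive thymocytes (Rag1, Ptcra, Cd8b1, Arpp21, Endou and Cd24a) fell against Bcl11b +/+, as both genes did. Their summed level was 18.8 to 41.7 CPM in Bcl11b D/N440K, 4.94 to 14.7 CPM in Bcl11b +/N440K and 451 to 462 CPM in Bcl11b +/+. Between the mutant genotypes the sum was higher in Bcl11b D/N440K, as Bcl11a was, while Bcl11b overlapped. Endou was listed at 0 in both Bcl11b +/N440K libraries. All 6 had counts in the Bcl11b +/+ libraries, 4 and 6 in those of Bcl11b D/N440K and 5 and 3 in those of Bcl11b +/N440K. Of 5 tested, 5 fell in each mutant genotype, and their part in the result was not tested.

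Bcl11b D/N440K was compared with the same Bcl11b +/+ libraries, so this result shares its controls with the one above. Bcl11b fell to 30.9% of the Bcl11b +/+ level (26.3 to 36.2%), a log2 fold change of -1.70 with an SE of 0.114 (edgeR adjusted p = 1.3e-14). Bcl11a fell to 63.0% (50.7 to 78.4%), a log2 fold change of -0.67 with an SE of 0.155 (edgeR adjusted p = 0.00191). In this comparison 12.4% of the 10910 genes passed (6.1% higher and 6.31% lower) and 51.0% did not overlap. Bcl11b was number 13 by p and Bcl11a number 654. The Bcl11b call held under all alternatives. The Bcl11a call was lost without Bcl11b +/+ replicate 2 (-0.60, edgeR adjusted p = 0.0509), and without Bcl11b D/N440K replicate 1 (-0.59, edgeR adjusted p = 0.0601). DESeq2 gave -0.66 with an adjusted p of 0.161.

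Between the mutant genotypes, Bcl11b D/N440K over Bcl11b +/N440K, neither gene passed the threshold, and 58 of all 10910 genes did (0.532%, with 0.284% higher and 0.247% lower), while 35.4% did not overlap. The log2 fold change of Bcl11b was -0.21 with an SE of 0.133 (95% interval -0.48 to 0.06, edgeR adjusted p = 0.786). That of Bcl11a was 0.43 with an SE of 0.182 (95% interval 0.06 to 0.80), with an unadjusted p of 0.0228 and an edgeR adjusted p of 0.490, where 7.8% of all genes had an unadjusted p under 0.05. Bcl11a was higher in both Bcl11b D/N440K libraries than in both of Bcl11b +/N440K.

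**Figure D2:**
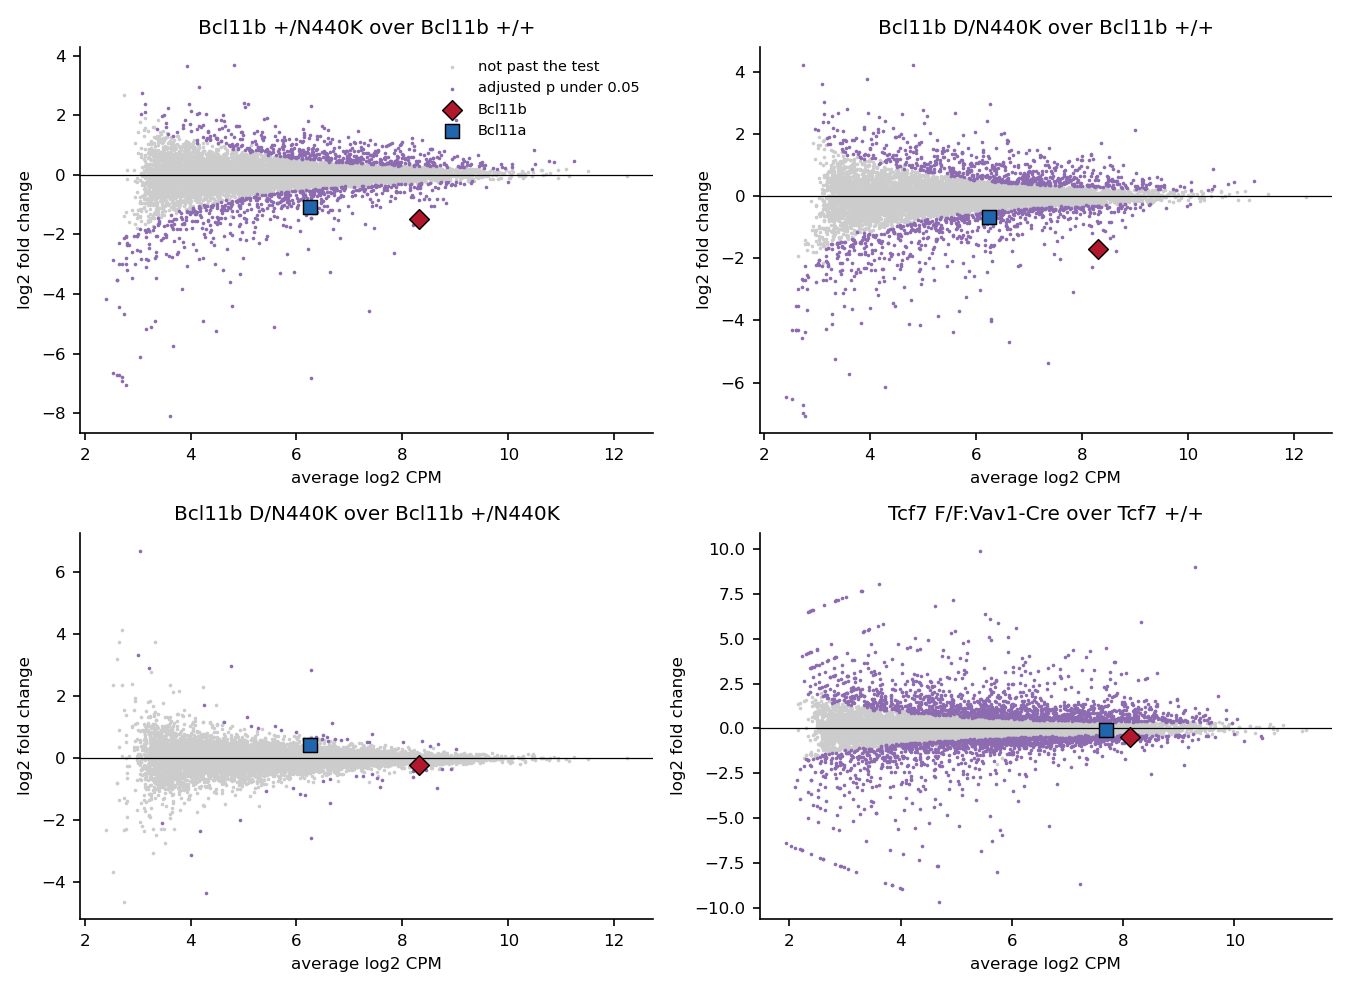
Log2 fold change against average log2 CPM for every tested gene in the 4 comparisons, with Bcl11b as a red diamond and Bcl11a as a blue square. Purple points passed an adjusted p of 0.05. Bcl11b lies at -1.48 and -1.70 against Bcl11b +/+, where 179 and 173 of 10910 genes lie lower, and both genes lie nearer 0 in the other comparisons.

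The Bcl11a share of the summed counts of the 2 genes does not depend on the scaling between libraries. It was 29.8 and 25.9% in Bcl11b D/N440K (exact Clopper-Pearson 95% intervals 24.2 to 35.8% and 20.8 to 31.6%), 20.4 and 19.1% in Bcl11b +/N440K (15.8 to 25.5% and 14.7 to 24.2%), and 13.8 and 18.0% in Bcl11b +/+ (11.3 to 16.5% and 15.3 to 20.99%). The reads carry no molecular identifiers, so copies made by PCR cannot be told from separate molecules. The intervals cover the counting error of reads only, and may be too narrow. The shares of the 3 genotypes did not overlap, but the intervals of Bcl11b +/N440K covered the 18.0% of Bcl11b +/+ replicate 2. The mean share was 27.8 ± 2.71, 19.7 ± 0.850 and 15.9 ± 3.03% (SD, n = 2 each) in Bcl11b D/N440K, +/N440K and +/+. The differences were 11.9 percentage points for Bcl11b D/N440K over Bcl11b +/+, 3.85 for Bcl11b +/N440K over Bcl11b +/+, and 8.09 for Bcl11b D/N440K over Bcl11b +/N440K. In a two-sided exact permutation test each of these gave p = 0.3333, the smallest that 2 libraries against 2 allow. Without Bcl11b +/+ replicate 1 the difference for Bcl11b +/N440K fell to 1.71 points, and without replicate 2 it was 5.99 points.

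At P7 the Bcl11a share was 48.0, 44.3 and 45.2% in the samples labelled Tcf7 F/F:Vav1-Cre and 44.6 and 32.8% in Tcf7 +/+, which overlap. The difference of the means was 7.13 points (exact permutation test, two-sided, p = 0.4, smallest possible 0.1). It was 1.23 points without Tcf7 +/+ replicate 2 and 13.0 points without Tcf7 +/+ replicate 1.

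**Figure D3:**
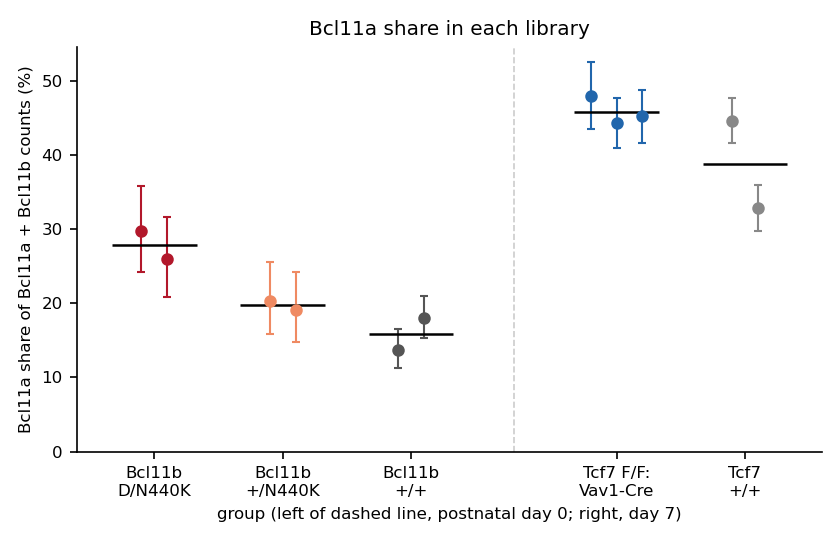
Share of Bcl11a in the summed counts of Bcl11a and Bcl11b (%) in each library, by group, with exact 95% Clopper-Pearson intervals and black lines for group means. The shares run from 13.8% in a Bcl11b +/+ library to 48.0% in a library labelled Tcf7 F/F:Vav1-Cre, and every P7 library lies above every P0 library.

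The samples labelled Tcf7 F/F:Vav1-Cre were compared with Tcf7 +/+ to read Bcl11b and Bcl11a where an upstream factor of Bcl11b is targeted. Tcf7 encodes TCF1, a factor that acts downstream of Notch in early T cells. Bcl11b fell to 71.5% of the Tcf7 +/+ level (59.0 to 86.7%), a log2 fold change of -0.48 with an SE of 0.132 (edgeR adjusted p = 0.0131). In this comparison 23.2% of 12366 genes passed (12% higher and 11.1% lower) and 48.8% did not overlap. The Bcl11b call was lost without Tcf7 F/F:Vav1-Cre replicate 1 (-0.40, edgeR adjusted p = 0.0960) and without replicate 3 (-0.47, edgeR adjusted p = 0.0750). With no filter on low counts it was -0.49 (edgeR adjusted p = 0.0710), and with the presence of Y-linked reads as a term, chosen after seeing the data, -0.31 with an SE of 0.197 (edgeR adjusted p = 0.429). Of the samples labelled Tcf7 F/F:Vav1-Cre, replicate 2, the one with Y-linked reads, had the highest Bcl11b level, 269 CPM, which was still below both Tcf7 +/+ libraries. Markers of other cells moved with this fall. The double-positive markers summed to 23.5 to 36.2 CPM in those labelled Tcf7 F/F:Vav1-Cre and 581 to 627 CPM in Tcf7 +/+. Endou was listed at 0 in all 3 libraries so labelled, and 5 of 5 tested fell. Ptcra, the marker not tested, was low but higher in those so labelled, at 1.62, 2.83 and 5.01 CPM against 0.563 and 1.13 CPM. Cd4, not among these markers, was higher too, at 370, 336 and 347 CPM against 232 and 171 CPM. Myeloid markers summed to 929 to 1066 CPM in those labelled Tcf7 F/F:Vav1-Cre and 342 to 561 CPM in Tcf7 +/+, and 4 of 5 tested rose. Progenitor markers summed to 688 to 770 CPM in those labelled Tcf7 F/F:Vav1-Cre and 379 to 436 CPM in Tcf7 +/+. Most of this rise was Kit, with 327, 349 and 366 CPM in those labelled Tcf7 F/F:Vav1-Cre and 56.9 and 61.4 CPM in Tcf7 +/+. Of the 8 progenitor markers tested, 2 were higher and 1 lower. ILC2 markers summed to 815 to 915 CPM in those labelled Tcf7 F/F:Vav1-Cre and 479 to 547 CPM in Tcf7 +/+, and 4 of 6 tested rose. The part of these cells in the Bcl11b level was not tested.

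Bcl11a did not pass in this comparison, with a log2 fold change of -0.09 and an SE of 0.164 (95% interval -0.44 to 0.25, edgeR adjusted p = 0.728). The Tcf7 +/+ pair decided its direction. Without Tcf7 +/+ replicate 1 it was 0.27 (edgeR adjusted p = 0.125), and without Tcf7 +/+ replicate 2 it was -0.38 and passed (edgeR adjusted p = 0.0275). Markers of plasmacytoid dendritic cells, which express Bcl11a, summed to 1686 to 2022 CPM in the samples labelled Tcf7 F/F:Vav1-Cre and to 2504 and 1692 CPM in replicates 1 and 2 of Tcf7 +/+, with all 7 markers present in every library. Tcf7 +/+ replicate 1, which had more Bcl11a, also had more of these markers than replicate 2. Its myeloid (561 against 342 CPM) and progenitor (436 against 379 CPM) sums were higher too. Its double-positive (581 against 627 CPM) and ILC2 (479 against 547 CPM) sums were lower. B lineage markers summed to 358 to 384 CPM in those labelled Tcf7 F/F:Vav1-Cre and to 712 and 617 CPM in replicates 1 and 2 of Tcf7 +/+. The part of these cells in the Bcl11a level was not tested.

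In the P0 libraries, of 10 B lineage markers, 4 to 7 had counts in any library, and Pax5, Ms4a1 and Igll1 were listed at 0 in all 6. Their summed level was 232 to 259 CPM in Bcl11b D/N440K, 325 to 336 CPM in Bcl11b +/N440K and 434 to 438 CPM in Bcl11b +/+, most of it Ighm. The plasmacytoid dendritic markers summed to 826 and 618 CPM in Bcl11b D/N440K, 560 and 799 CPM in Bcl11b +/N440K and 808 and 848 CPM in Bcl11b +/+, so Bcl11b D/N440K overlapped both other groups. All 7 of them had counts in each library. Of 6 tested, 4 fell in Bcl11b D/N440K and 4 in Bcl11b +/N440K against Bcl11b +/+, where 6.31 and 5.3% of all genes fell. The median log2 fold changes of the 6 were -0.51 and -0.64. DESeq2 called 0 of the 6 in Bcl11b D/N440K and 1 in Bcl11b +/N440K. Ly6d had 30.0 and 25.4 CPM in Bcl11b D/N440K, 14.7 and 18.8 CPM in Bcl11b +/N440K and 52.2 and 48.2 CPM in Bcl11b +/+, so it shared with Bcl11a the order of the 3 genotypes. Its fall in Bcl11b D/N440K (-0.84, edgeR adjusted p = 0.0114) was lost without Bcl11b +/+ replicate 1, without either Bcl11b D/N440K library and with DESeq2 (adjusted p of 0.0506 to 0.323). The part of these cells in the fall of Bcl11a was not tested.

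Of the 4 factors known to act upstream of Bcl11b, Runx1 and Tcf7 fell in both mutant genotypes, while Notch1 and Gata3 did not pass. Over all genes, 6.31% fell in Bcl11b D/N440K and 5.3% in Bcl11b +/N440K. Runx1, a Runt-domain factor that binds Bcl11b enhancers, had 308 and 260 CPM in Bcl11b D/N440K, 246 and 345 CPM in Bcl11b +/N440K and 544 and 479 CPM in Bcl11b +/+. Its log2 fold change against Bcl11b +/+ was -0.84 in Bcl11b D/N440K (edgeR adjusted p = 9.33e-08) and -0.80 in Bcl11b +/N440K (edgeR adjusted p = 3.07e-07). Tcf7 had 686 and 717 CPM in Bcl11b D/N440K, 675 and 710 CPM in Bcl11b +/N440K and 1001 and 824 CPM in Bcl11b +/+. Its falls of -0.37 and -0.39 on the log2 scale (edgeR adjusted p = 0.00044 and 0.00030) were both lost without Bcl11b +/+ replicate 1, at -0.23 and -0.25 (edgeR adjusted p = 0.0953 and 0.0715). Gata3 was at -0.23 and -0.26 (edgeR adjusted p = 0.164 and 0.114). Notch1, the receptor that starts the T cell program, was at -0.13 and -0.11 (edgeR adjusted p = 0.351 and 0.488), and its sign turned without Bcl11b +/+ replicate 1. None of the 4 passed between the mutant genotypes with edgeR or DESeq2, and 0 had an unadjusted p under 0.05. Over all genes, 0.532% passed with edgeR there and 7.8% had an unadjusted p under 0.05. Finding 0 of 4 is thus near the share of all genes.

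At P7 Runx1 was higher in the samples labelled Tcf7 F/F:Vav1-Cre, at 543, 577 and 582 CPM, against 469 and 404 CPM in Tcf7 +/+ (log2 fold change 0.38, edgeR adjusted p = 0.0277). This call was lost without any 1 of the 3 samples labelled Tcf7 F/F:Vav1-Cre (edgeR adjusted p of 0.0595 to 0.124), without Tcf7 +/+ replicate 2 (0.28, edgeR adjusted p = 0.115), with no filter (edgeR adjusted p = 0.0901) and with the Y-linked term (edgeR adjusted p = 0.207). The Tcf7 gene itself was at 0.35 (edgeR adjusted p = 0.0497), a call lost under most alternatives, with adjusted p of 0.0515 to 0.602 where it was lost. Notch1 was at 0.37 (edgeR adjusted p = 0.0526). It passed without Tcf7 +/+ replicate 1 at 0.61 (edgeR adjusted p = 0.00018) and was at 0.16 without replicate 2 (edgeR adjusted p = 0.416). Gata3 was at 0.19 (edgeR adjusted p = 0.383). It was at 0.08 without Tcf7 +/+ replicate 1 and 0.07 without Tcf7 F/F:Vav1-Cre replicate 2.

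The promoters are shown because both genes fell together at P0 and because TCF1, the product of Tcf7, has a known motif, CTTTGA. The RefSeq promoter windows of GRCm38.p6 are 300 bases long, Bcl11b at chr12:108003365-108003664 on the minus strand and Bcl11a at chr11:24080445-24080744 on the plus strand. The RefSeq start of Bcl11a lies downstream of the GENCODE gene start. CTTTGA, in capitals, was found in the Bcl11b window, at position 162 from its 5′ end, and not in the Bcl11a window. It is present in 16.0% of 32851 RefSeq promoters on either strand.
Bcl11b: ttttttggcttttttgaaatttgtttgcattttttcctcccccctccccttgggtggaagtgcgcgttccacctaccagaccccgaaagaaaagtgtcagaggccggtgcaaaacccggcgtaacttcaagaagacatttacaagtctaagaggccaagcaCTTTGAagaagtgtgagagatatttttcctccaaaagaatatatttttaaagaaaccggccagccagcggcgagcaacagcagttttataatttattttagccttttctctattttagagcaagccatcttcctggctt
Bcl11a: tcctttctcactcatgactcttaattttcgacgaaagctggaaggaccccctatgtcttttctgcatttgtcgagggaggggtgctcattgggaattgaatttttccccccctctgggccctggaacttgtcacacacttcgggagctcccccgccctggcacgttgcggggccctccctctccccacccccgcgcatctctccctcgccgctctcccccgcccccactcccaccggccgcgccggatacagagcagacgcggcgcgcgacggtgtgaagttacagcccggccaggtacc
The windows differed in composition, with 43.0% G and C and 9 CpG sites for Bcl11b, and 63.0% and 23 CpG sites for Bcl11a. TGACCA, a motif of the BCL11A zinc fingers, TGTGGT of RUNX factors and AGATAA of GATA factors had no match in either window on either strand, and are present in 13.6, 16.8 and 11.2% of promoters. The E-box CANNTG had 1 match, in Bcl11a at position 65, and is present in 72.3%. Each window thus held 1 match, with no overlap between motifs. A match is a description of these letters, not a binding site.

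Next to the members, 13 genes listed as ones that rise when T cell precursors lose Bcl11b were read, mostly genes of natural killer cells. In Bcl11b D/N440K, 10 of 13 rose, 1 fell and 2 did not pass (median log2 fold change 0.75). In Bcl11b +/N440K, 9 rose, 1 fell and 3 did not pass (median 0.62). The medians over all tested genes were 0.0014 and 0.0017. Of all 10910 genes, 6.1% rose and 6.31% fell in Bcl11b D/N440K, and 4.79% rose and 5.3% fell in Bcl11b +/N440K. Ncr1, the activating receptor NKp46, had 139 and 118 CPM in Bcl11b D/N440K, 89.8 and 72.1 CPM in Bcl11b +/N440K, and 20.5 and 13.3 CPM in Bcl11b +/+. Ncr1 rose by 2.96 in Bcl11b D/N440K (edgeR adjusted p = 1.05e-13) and by 2.30 in Bcl11b +/N440K (edgeR adjusted p = 1.77e-09), as log2 fold changes. Id2, an inhibitor of E proteins needed by innate lymphoid cells, had 534 and 581 CPM in Bcl11b D/N440K, 478 and 496 CPM in Bcl11b +/N440K, and 276 and 280 CPM in Bcl11b +/+. Gzmb, the killing protease granzyme B, rose by 1.11 in Bcl11b D/N440K (edgeR adjusted p = 8.64e-09) and by 0.99 in Bcl11b +/N440K (edgeR adjusted p = 1.88e-07). Zbtb16, the factor PLZF of innate-like lymphocytes, was the 1 gene that fell in both, and in Bcl11b D/N440K it is named after its value was seen. It had 256 and 259 CPM in Bcl11b D/N440K, 228 and 219 CPM in Bcl11b +/N440K, and 383 and 369 CPM in Bcl11b +/+.

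Of 12 T cell genes listed as ones that need Bcl11b, 11 were tested at P0. In Bcl11b D/N440K, 8 fell, 1 rose and 2 did not pass (median log2 fold change -2.02). In Bcl11b +/N440K, 9 fell, 1 rose and 1 did not pass (median -1.09). Over all genes, 6.31% fell and 6.1% rose in Bcl11b D/N440K, and 5.3% fell and 4.79% rose in Bcl11b +/N440K. The 1 that rose in both was Zbtb7b, the factor ThPOK of CD4 T cells (1.15 and 1.08), named after its value was seen. Cd8a, a chain of the CD8 coreceptor, had 15.4 and 19.3 CPM in Bcl11b D/N440K, 36.7 and 40.5 CPM in Bcl11b +/N440K, and 147 and 136 CPM in Bcl11b +/+. Cd6, a receptor on T cells, had 6.85 and 5.09 CPM in Bcl11b D/N440K, 20.4 and 14.8 CPM in Bcl11b +/N440K, and 93.1 and 84.7 CPM in Bcl11b +/+. Both of these genes were lower in Bcl11b D/N440K than in Bcl11b +/N440K without overlap, as 35.4% of all genes did not overlap, and Cd6 did not pass in that comparison (-1.54, edgeR adjusted p = 0.0751). The double-positive markers, of which Cd8b1 is also on this list, fell in the same libraries as given above, and their part was not tested.

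Between the mutant genotypes 4 of the 11 fell in Bcl11b D/N440K, 1 rose and 6 did not pass. Of all genes, 0.247% fell and 0.284% rose in this comparison. Cd8a (-1.15, edgeR adjusted p = 0.0264), Cd5 (-1.997, edgeR adjusted p = 0.0324) and Cd3g (0.52, edgeR adjusted p = 0.0309) each failed to pass without any 1 of the 4 libraries and with DESeq2 (DESeq2 adjusted p of 0.849, 0.909 and 1.00). Ncr1 rose by 0.66 (edgeR adjusted p = 0.0252), and this was lost without Bcl11b +/N440K replicate 2 (edgeR adjusted p = 0.210), without Bcl11b D/N440K replicate 1 (0.505) or replicate 2 (0.0516), with DESeq2 and with limma on CPM.

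At P7 these lists moved in both directions in the samples labelled Tcf7 F/F:Vav1-Cre. Of the 13 genes of the first list, 4 rose, 5 fell and 4 did not pass (median 0.20). Kit, the receptor of stem cell factor, had 327, 349 and 366 CPM in those labelled Tcf7 F/F:Vav1-Cre and 56.9 and 61.4 CPM in Tcf7 +/+. Klrk1, the receptor NKG2D, had 26.7, 29.4 and 41.2 CPM in those labelled Tcf7 F/F:Vav1-Cre and 143 and 176 CPM in Tcf7 +/+. Of the 12 genes of the second list, 5 rose and 7 fell (median -1.13). Cd3d, a chain of the TCR complex, had 1.62, 1.70 and 1.11 CPM in those labelled Tcf7 F/F:Vav1-Cre and 106 and 127 CPM in Tcf7 +/+. The median over all tested genes was -0.0096, and 12% of all genes rose and 11.1% fell.

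Genes of the complexes that BCL11 proteins recruit were read at P0, where 12.4% of all genes passed in Bcl11b D/N440K and 10.1% in Bcl11b +/N440K. Of 13 NuRD genes, 1 fell in Bcl11b D/N440K and 0 passed in Bcl11b +/N440K, with medians of -0.05 and 0.01 against Bcl11b +/+. At an unadjusted p under 0.05 stood 1 and 2 of the 13, where 22.6 and 20.5% of all genes did, and DESeq2 called 0. The 1 was Mta3 (-0.42, edgeR adjusted p = 0.00929), lost without Bcl11b +/+ replicate 1 (edgeR adjusted p = 0.0978), without Bcl11b D/N440K replicate 1 (edgeR adjusted p = 0.134) and under DESeq2 (adjusted p = 0.224). Of 16 tested BAF genes, 2 fell in each mutant genotype, with medians of -0.10 and -0.09, and DESeq2 called 1 in Bcl11b D/N440K and 0 in Bcl11b +/N440K. The share of BAF genes called is near that of all genes. Bcl7a, a BAF subunit, had 48.0 and 31.6 CPM in Bcl11b D/N440K, 50.6 and 45.4 CPM in Bcl11b +/N440K, and 102 and 75.6 CPM in Bcl11b +/+. Its log2 fold change of -1.12 in Bcl11b D/N440K (edgeR adjusted p = 5.46e-05) held under all alternatives. That of -0.86 in Bcl11b +/N440K (edgeR adjusted p = 0.00129) no longer passed without Bcl11b +/+ replicate 1 (-0.65, edgeR adjusted p = 0.0769) and with DESeq2 (adjusted p = 0.107). Of 11 other partners tested, such as the deacetylase Sirt1 and the corepressors Ncor1 and Rcor1, 0 passed in either mutant genotype against Bcl11b +/+ with edgeR or DESeq2, and 2 in Bcl11b D/N440K and 4 in Bcl11b +/N440K had an unadjusted p under 0.05. Between the mutant genotypes 0 genes of the 3 lists passed with edgeR or DESeq2. There 1, 1 and 0 of the NuRD, BAF and other partner genes had an unadjusted p under 0.05. Over all genes, 0.532% passed with edgeR in that comparison and 7.8% had an unadjusted p under 0.05, so these counts are near the background.

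At P7, where 23.2% of all genes passed, the shares of NuRD and BAF genes called were near that background. In the samples labelled Tcf7 F/F:Vav1-Cre, 3 of 13 NuRD genes fell, 2 of 16 BAF genes rose and 2 fell, and 2 of 11 other partners rose and 3 fell. Bcl7a was again the first BAF gene by p, with 29.1, 19.8 and 31.7 CPM in those labelled Tcf7 F/F:Vav1-Cre and 66.5 and 57.5 CPM in Tcf7 +/+ (log2 fold change -1.21, edgeR adjusted p = 0.00069). Chd3, a helicase of NuRD, fell with a log2 fold change of -0.50 (edgeR adjusted p = 0.00888). This call was lost without Tcf7 F/F:Vav1-Cre replicate 1 (edgeR adjusted p = 0.0547) or replicate 3 (edgeR adjusted p = 0.0659) and with the Y-linked term (-0.41, edgeR adjusted p = 0.270).

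**Figure D4:**
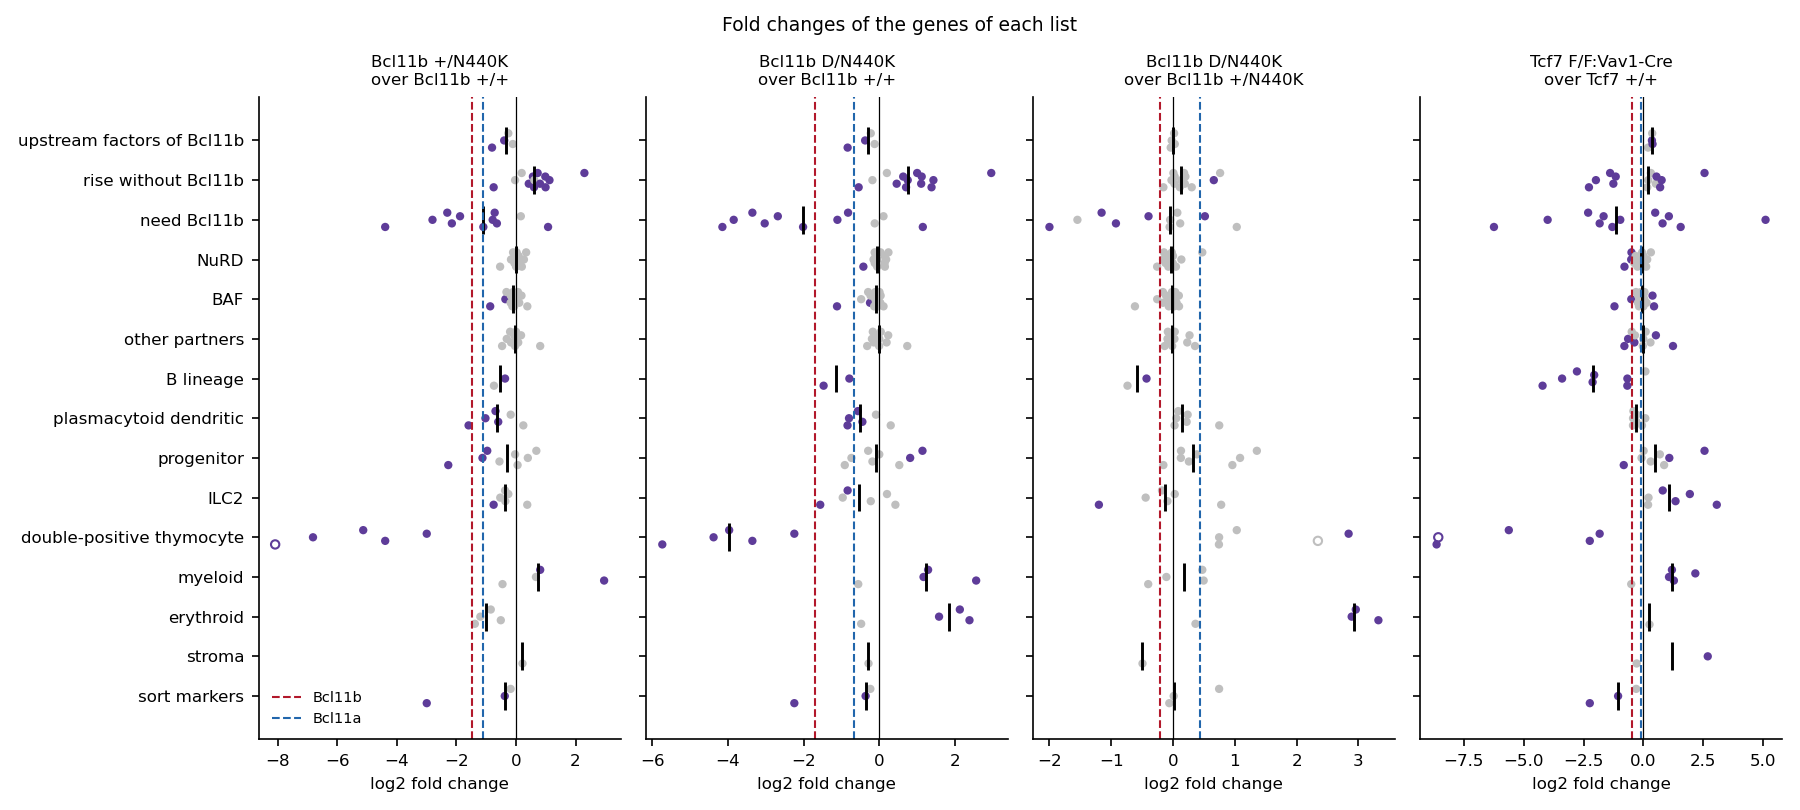
Log2 fold changes of the tested genes of each list (rows) in the 4 comparisons (panels). Purple points passed an adjusted p of 0.05, grey ones did not, short black lines are list medians, and dashed lines mark Bcl11b (red) and Bcl11a (blue). Open circles mark Endou where 1 group is at 0, a fitted value that is no bound, and its list then has no median line. The medians of the NuRD, BAF and other partner genes lie between -0.10 and 0.01 against Bcl11b +/+, with Bcl7a lowest at -1.12 and -0.86, while most genes of the list "rise without Bcl11b" lie above 0 against Bcl11b +/+.

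Of the other lists, progenitor, ILC2, myeloid and erythroid genes were read as markers of cells that the sort could hold. In Bcl11b D/N440K against Bcl11b +/+, where 6.1% of all genes rose and 6.31% fell, 2 of 8 progenitor genes rose, 2 of 6 ILC2 genes fell, 3 of 4 myeloid genes rose and 3 of 4 erythroid genes rose, while DESeq2 called 0, 1, 1 and 0 of the 4 lists. In Bcl11b +/N440K against Bcl11b +/+, where 4.79% of all genes rose and 5.3% fell, 3 of 8 progenitor genes fell, 1 of 6 ILC2 genes fell, 2 of 4 myeloid genes rose (DESeq2 called 1, 0 and 0 of these 3 lists), and 0 of 4 erythroid genes passed with edgeR or DESeq2, with 2 at an unadjusted p under 0.05. Erythroid markers, 8 in all, summed to 92.5 to 123 CPM in Bcl11b D/N440K, 11.8 to 26.9 CPM in Bcl11b +/N440K and 28.2 to 62.4 CPM in Bcl11b +/+. Myeloid markers, 7 in all, summed to 304 to 306 CPM in Bcl11b D/N440K, 216 to 257 CPM in Bcl11b +/N440K and 107 to 158 CPM in Bcl11b +/+. Like Bcl11a, the erythroid sum was lowest in Bcl11b +/N440K, but it was highest in Bcl11b D/N440K and not in Bcl11b +/+. The myeloid sum ran opposite to Bcl11b, highest in Bcl11b D/N440K and lowest in Bcl11b +/+. The part of these cells was not tested. Of the stroma markers, Epcam alone was tested at P0, and it passed in neither comparison with Bcl11b +/+.

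The genes whose profiles were most like those of the members were found by the root-mean-square difference of log2 CPM over the 6 libraries of the Bcl11b table, each gene centred on its mean, among 9825 candidates. For Bcl11b, whose own log2 CPM spanned 2.07, these were Caskin2 (difference 0.1097), Zfp704 (0.150), Il17rc (0.154), Inava (0.167), Ldhb (0.187) and Olfr524 (0.189). Zfp704, a zinc-finger gene, had 36.0 and 40.7 CPM in Bcl11b D/N440K, 40.0 and 39.5 CPM in Bcl11b +/N440K, and 119 and 110 CPM in Bcl11b +/+. Ldhb, a subunit of lactate dehydrogenase, had 5.995 and 6.11 CPM in Bcl11b D/N440K, 8.16 and 9.87 CPM in Bcl11b +/N440K, and 26.6 and 18.3 CPM in Bcl11b +/+. Bcl11a was number 249 in this order, with a difference of 0.457.

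For Bcl11a, whose log2 CPM spanned 1.202, the most alike were Insr (0.0980), Col15a1 (0.107), Ypel2 (0.108), Grk4 (0.108), Tfrc (0.1104) and Ddx60 (0.113). Tfrc, the transferrin receptor, had 99.3 and 106 CPM in Bcl11b D/N440K, 89.0 and 84.9 CPM in Bcl11b +/N440K, and 179 and 185 CPM in Bcl11b +/+. Insr, the insulin receptor, had 50.5 and 66.2 CPM in Bcl11b D/N440K, 43.3 and 44.4 CPM in Bcl11b +/N440K, and 92.1 and 87.2 CPM in Bcl11b +/+. Both were chosen for their likeness to Bcl11a over these same libraries, so being lowest in Bcl11b +/N440K, as Bcl11a was, follows from the choice. Bcl11b was number 3957 in the order of Bcl11a.

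**Figure D5:**
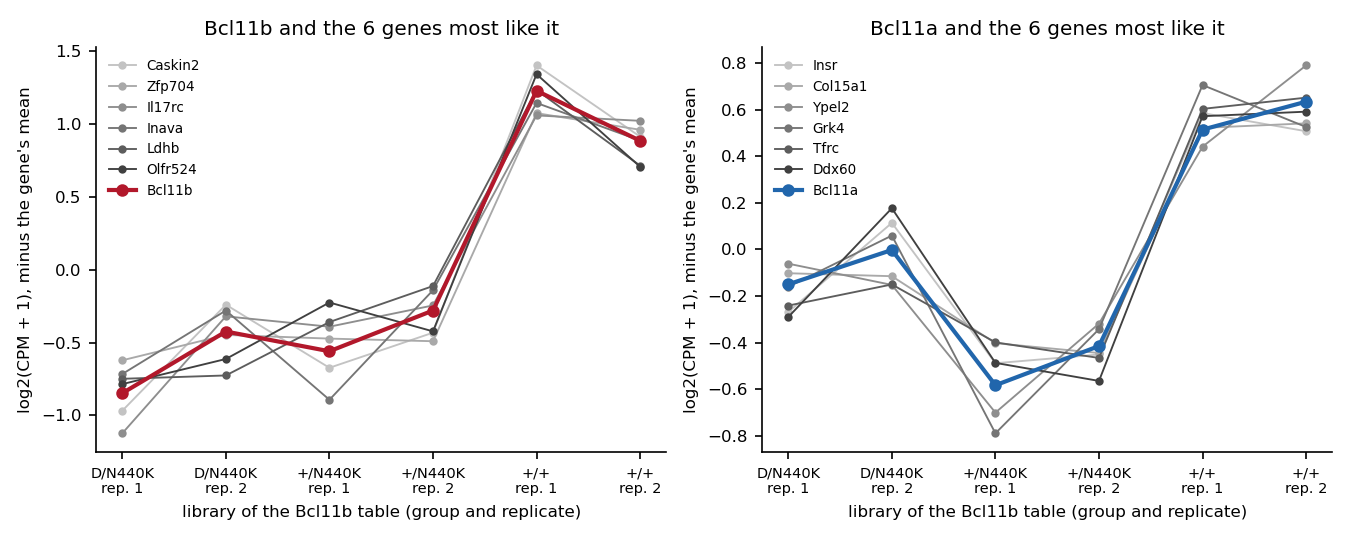
Log2(CPM + 1) minus the gene's mean in the 6 libraries of the Bcl11b table, for Bcl11b (left, red) and Bcl11a (right, blue) with the 6 genes most like each (grey). Bcl11b and its 6 genes are low in all 4 mutant libraries, while Bcl11a and its 6 genes are lowest in Bcl11b +/N440K and between in Bcl11b D/N440K. The grey genes were chosen for likeness over these same libraries, so the shared shape follows from the choice.

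Over the 5 libraries of the Tcf7 table, among 10379 candidates, the genes most like Bcl11b were Usp31 (0.0310), Basp1, Ccnb2, Arl4c, Rfx3 and Setd6 (0.0530), and those most like Bcl11a were AC132481.2 (0.0375), Zbtb18, Uqcc2, Ganc, Tapbpl and Xylt2 (0.0491). None of these 12 genes was among the 12 found in the Bcl11b table. The spans of Bcl11b and Bcl11a were 0.71 and 0.64 there, and each was far from the other (0.317, number 4637 and number 4890).

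The nearest tested genes on either side were read at both loci. Setd3, a histidine methyltransferase gene 102829 bases from Bcl11b, averaged 58.6 ± 0.763, 56.7 ± 0.611 and 52.3 ± 5.92 CPM (SD, n = 2 each) in Bcl11b D/N440K, +/N440K and +/+. Papolg, a poly(A) polymerase gene 182803 bases from Bcl11a, averaged 75.3 ± 0.0343, 62.7 ± 3.59 and 59.4 ± 4.21 CPM (SD, n = 2 each) in Bcl11b D/N440K, +/N440K and +/+. The other sides held Gm46378, 1821746 bases from Bcl11b, and Fancl, a Fanconi anaemia gene 2212012 bases from Bcl11a. None of the 4 passed in any of the 4 comparisons (edgeR adjusted p of 0.163 to 0.985).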

How the data were processed

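RNA of 11 sorted thymocyte samples was measured in 2 tables. A version of RamDA-seq gave the cDNA, per the labels' protocols, primed by oligo(dT) and by not-so-random primers, then Tn5-cut and PCR-amplified. The tools named are HTSeq 0.11.2, STAR 2.7.3a, fastp 0.20.0, Picard 2.21.1, SAMtools 1.9 and edgeR, with GRCm38 (mm10) as the build, per the submitters' processing notes. The annotation release and strand setting are not given in the sources used here. The count tables hold whole numbers per gene as the authors deposited them. The authors' CPM tables hold those counts scaled by TMM: whole reads, within 0.001, were recovered from 100% of them, and the 10910 and 12366 genes the authors listed are those that passed the filter here.

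Each table was filtered with filterByExpr (minimum count of 10) and scaled by TMM. It was fitted with edgeR 4.0.16 (R 4.3.3) by the quasi-likelihood test with a coefficient per group, leaving 3 residual degrees of freedom. The test draws each gene's spread towards that of all genes, so p-values and intervals rest on more degrees of freedom than these 3. Calls used Benjamini-Hochberg adjusted p under 0.05 over all genes tested, two-sided. Intervals of counts (Poisson) and of shares (Clopper-Pearson) were exact at 95%, those of fold changes came from the fit and its SE, and shares were compared by exact permutation tests. Likeness used log2 CPM with a prior count of 2 and average log2 CPM of at least 3, without symbols of the Gm and Rik kind. Proteins were translated and aligned with Biopython 1.88. GENCODE M21 gave exon lengths. Named genes were the members, 4 upstream factors, the first 4 by p of the lists "rise without Bcl11b" and "need Bcl11b", the first by p of each other list, the 6 genes most like each member, and overlapping and neighbouring genes. Some genes that this rule names are not reported here. The members and lists were chosen with earlier results of these data known. Columns of no sample of the series numbered 0. Precision is limited by counts of 54 to 134 for Bcl11a in the P0 libraries. Replicates were compared over genes of at least 20 reads. The chi-square per degree of freedom was above 1 in every pair, and none was counted as a repeat. It was 1.13, 1.42 and 1.16 in the pairs of Bcl11b D/N440K, +/N440K and +/+. Counting error alone gives about 1, so these values do not show that the P0 replicates were separate samples. The fit was tested on simulated data.

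Alternatives were RLE and upper-quartile scaling, no filter, a stricter filter (CPM of 5 in 2 libraries), a replicate block, DESeq2 1.42.0, limma 3.58.1 (voom, and log2 of the authors' CPM with a pseudocount of 1), only the groups compared, each library left out, and counts per kilobase. The reads recovered from the authors' CPM and a term for Y-linked reads were chosen after seeing the data.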

Additional observations from a re-analysis of the deposited data

How the results depend on the processing

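Every fold change of Bcl11b and Bcl11a against Bcl11b +/+ kept its direction under every alternative, and the calls that were lost are these. For Bcl11a in Bcl11b D/N440K, DESeq2 gave -0.66 (DESeq2 adjusted p = 0.161), and leaving out each library gave -0.74 to -0.59. For Bcl11b in Tcf7 F/F:Vav1-Cre, no filter gave -0.49 (edgeR adjusted p = 0.0710), the Y-linked term -0.31 (edgeR adjusted p = 0.429), and leaving out each library -0.58 to -0.40. For Bcl11a in Tcf7 F/F:Vav1-Cre, leaving out each library gave -0.38 to 0.27, so its direction rests on the Tcf7 +/+ pair. Against Bcl11b +/+, Notch1 ranged over -0.25 to 0.0035 (Bcl11b D/N440K) and -0.23 to 0.023 (Bcl11b +/N440K) with each library left out, turning without Bcl11b +/+ replicate 1. The cause was not tested.

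The count of genes called against Bcl11b +/+ was 1101 in Bcl11b +/N440K and 1353 in Bcl11b D/N440K. DESeq2 called 357 and 528, and leaving out each library 703 to 1072 and 889 to 1516. Between the mutant genotypes 58 genes were called, 4 with DESeq2 (212 at an unadjusted p under 0.05), 91 with no filter and 19 to 77 with each library left out. In Tcf7 F/F:Vav1-Cre 2863 were called, 1606 with no filter, 1112 with the Y-linked term and 1717 to 4443 with each library left out. The reads recovered from the authors' CPM gave the same counts, 1101, 1353, 58 and 2863. Where a library left out leaves a lone one in its group, that one is assumed to vary like the other groups.

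Replicate numbers did not pair the libraries: the deviations of same-numbered libraries correlated at -0.0326 to 0.0097 in the Bcl11b table, and at -0.1118 and 0.0736 in the Tcf7 table. With the replicate block, 37 genes were called between the mutant genotypes, and Bcl11b in Tcf7 F/F:Vav1-Cre was at -0.49 (edgeR adjusted p = 0.0655). In counts per kilobase the Bcl11a share was 20.7 and 17.7% in Bcl11b D/N440K, 13.6 and 12.7% in Bcl11b +/N440K, and 8.94 and 11.9% in Bcl11b +/+. For Tcf7 F/F:Vav1-Cre it was 36.2, 32.9 and 33.7%, against 33.1 and 23.1% for Tcf7 +/+. Leaving out each library moved the differences in share to 1.71 to 5.99 points (Bcl11b +/N440K over Bcl11b +/+), 9.81 to 14.1 (Bcl11b D/N440K over Bcl11b +/+), 6.18 to 10.0 (Bcl11b D/N440K over Bcl11b +/N440K) and 1.23 to 13.0 (Tcf7 F/F:Vav1-Cre over Tcf7 +/+). For the other named genes, 1310 values kept their side of the threshold, 133 lost it, 3 gained it and 2 changed sign. With 2 or 3 libraries a group and 54 to 134 counts of Bcl11a per P0 library, small changes of Bcl11a are not detectable at this depth.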
